A study of Mus musculus with 16 samples.

Results

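A set of 7 genes of the renin-angiotensin system was followed in liver and kidney RNA of mice that had lived for 85 weeks either in LD, a light-dark cycle with a fixed light period, or in ADV, a schedule in which the light-dark cycle was advanced by 8 h once every 4 days. The 7 genes, Agt, Ren1, Ace, Agtr1a, Enpep, Mme and Atp6ap2, were chosen by symbol among the 32989 genes listed in the table of each organ, and each had a single row. RNA of both organs was sequenced from the same 8 male C57BL/6J mice, 4 in LD (L63, L65, L86 and L104) and 4 in ADV (A75, A91, A94 and A115), which gave 16 libraries. All mice were 97 weeks old, showed no apparent weakness and gave their organs in the early dark phase, so that 1 phase of the light-dark cycle was sampled. The authors report that the activity of ADV mice did not follow the shifted cycle. The internal phase of the mice may therefore have differed and was not tested. Each library came from 1 mouse, and the comparison of conditions therefore rested on 4 mice against 4 in each organ.

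Angiotensinogen, the product of Agt, is the secreted precursor from which all angiotensins are cut, and the liver is its main source in blood. Renin, encoded in these mice by Ren1 and made by granular cells of the juxtaglomerular apparatus of the kidney, removes angiotensin I from its end, and angiotensin-converting enzyme (Ace) shortens this to angiotensin II. Angiotensin II acts through the type 1 receptor (Agtr1a) to constrict vessels and retain salt, aminopeptidase A (Enpep) trims it, neprilysin (Mme) cleaves angiotensin I and natriuretic peptides, and Atp6ap2, the (pro)renin receptor, is also an accessory subunit of the vacuolar proton pump.

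In the mm10 coordinates of the tables, Agt lies at chr8:124556587-124569707 on the minus strand, Ren1 at chr1:133350674-133360320, Ace at chr11:105967945-105989964, Agtr1a at chr13:30336356-30382867, Enpep at chr3:129269177-129332749 on the minus strand, Mme at chr3:63295872-63383713 and Atp6ap2 at chrX:12587759-12617051. All are protein-coding genes, and the values below summed their exons. Promoters were held by RefSeq (GRCm38.p6) for 6 of the 7 genes in 9 windows; Agtr1a was the gene without one. The 250 bases before the annotated start are shown for the precursor gene, for the gene of the enzyme that cuts it, and for Atp6ap2, which was read in both organs, because these stand for the members with the highest level in the liver, with nearly no RNA in the liver, and with RNA in both organs. Letters are 5′ to 3′ on the strand of the gene, and capitals mark a TATA box (TATAAA), a GC box (GGGCGG) or a CCAAT box (CCAAT) on either strand.
Agt (chr8:124569707-124569956, minus strand): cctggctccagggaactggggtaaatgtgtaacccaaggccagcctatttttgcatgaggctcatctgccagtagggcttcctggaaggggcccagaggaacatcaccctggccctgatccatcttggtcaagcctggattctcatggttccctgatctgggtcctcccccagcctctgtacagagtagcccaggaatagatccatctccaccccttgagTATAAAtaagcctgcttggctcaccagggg
Ren1 (chr1:133350424-133350673, plus strand): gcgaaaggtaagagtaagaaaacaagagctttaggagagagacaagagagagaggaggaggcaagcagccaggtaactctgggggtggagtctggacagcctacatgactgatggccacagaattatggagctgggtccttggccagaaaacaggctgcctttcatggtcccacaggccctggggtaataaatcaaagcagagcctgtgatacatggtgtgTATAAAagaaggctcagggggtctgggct
Atp6ap2 (chrX:12587509-12587758, plus strand): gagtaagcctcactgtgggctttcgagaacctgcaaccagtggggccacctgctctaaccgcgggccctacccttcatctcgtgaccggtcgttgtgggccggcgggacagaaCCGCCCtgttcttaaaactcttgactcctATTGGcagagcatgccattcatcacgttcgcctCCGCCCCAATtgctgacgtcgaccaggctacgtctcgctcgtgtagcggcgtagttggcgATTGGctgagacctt
The letters TATAAA stood on the strand of the gene 30 bases before the start of Agt and 29 bases before that of Ren1, a position at which TATA boxes usually lie. Among all 32851 promoters of the same length, 1.99% held them on this strand with the first base 16 to 40 bases before the start, and 12.4% held them anywhere on either strand. By the second measure the first promoter of Ace and that of Enpep held them too, on the opposite strand, 31 and 52 bases before the start. Atp6ap2 had no such letters but had both a GC box, held by 32.7% of all promoters, and a CCAAT box, held by 33.8%. The E-box letters CACGTG, bound by CLOCK and BMAL1, were found in 6.02% of all promoters and in none of the 9 windows. The letters TTATGTAA of a D-box were found in 0.819% of all promoters and in none of the 9 windows. AGGTCA, the core letters of ROR and REV-ERB sites, was found in 14.0% of all promoters and, among the windows, in the second promoter of Ace, 50 bases before its start. These are matches of letters within 250 bases and were read no further.

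Values are FPKM, fragments divided by the exon length and by the total of the library. Genes of unlike length can therefore be compared, but kidney values also shifted with GC content, by library, as described below. Liver libraries held between 2.11e+07 and 2.43e+07 fragments on annotated genes, and kidney libraries between 1.57e+07 and 1.804e+07, a read without its mate counting as 0.5. Hepatocyte markers summed to between 55756 and 68418 FPKM in the livers and to between 70.6 and 119 in the kidneys, and 10 markers of the proximal tubule summed to between 20247 and 47946 in the kidneys. In the livers Slc27a2, a fatty acid carrier that hepatocytes also express, was read at 284 to 651 FPKM, and the other 9 were at 0.0854 at most, 4 of them at 0. The kidney of A115 stood apart: mitochondrial genes took 33.8% of its fragments against 9.43% to 18.02% in the other kidneys, and its mean correlation with the other kidneys was 0.918 against 0.956 to 0.973. Results that rest on this kidney are therefore given with and without it. Fewer cells of a type and less RNA per cell cannot be told apart in these bulk samples.

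The members divided the organs between them. Agt was read mainly in the liver, Ren1 and Ace almost wholly in the kidney, Enpep, Mme and Atp6ap2 in both organs with the higher FPKM in the kidney, and Agtr1a at nearly the same FPKM in both.

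Agt, the precursor, was the highest of the 7 genes in the liver, at a mean of 249 FPKM over the 8 mice against 21.6 in the kidney. The liver value was above the kidney value of the same mouse in 8 of 8 mice, and the difference was 3.75 ± 0.34 on the log2(FPKM + 0.1) scale (limma estimate ± SE; adjusted p = 7.6e-08; two-sided exact sign-flip p = 0.0078, the smallest that 256 sign assignments of 8 mice give). Renin was the reverse. In the kidney, Ren1 lay between 9.0 and 15.8 FPKM in LD and between 3.69 and 19.4 in ADV, whereas in the liver it was listed at 0 in 5 of 8 libraries and at 0.0144 in L104, 0.0306 in A91 and 0.0305 in A115. Those 3 livers together held 2.5 fragments, against 2571 in the 8 kidneys, and the pooled kidney level, relative to the library totals, was 1352 times that of the liver (95% counting interval 422 to 8135). All liver values lay below the 0.0807 to 0.0933 FPKM that 3 fragments would give, so that no more can be said of Ren1 in the liver, and it did not reach the minimum for testing there. Counting intervals of this kind cover counting error only.

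Ace followed renin, with a mean of 33.2 FPKM in the kidney, where the enzyme sits on the brush border of the proximal tubule, against 0.282 in the liver. The ratio of these means was 118, the difference was -6.41 ± 0.28 (limma, liver minus kidney, adjusted p = 1.2e-11), and the kidney was higher in 8 of 8 mice (exact sign-flip p = 0.0078). The membrane peptidases that take angiotensins apart and the (pro)renin receptor differed less. Mean FPKM in liver and kidney were 26.9 and 48.5 for Enpep, 14.3 and 39.4 for Mme, and 19.7 and 49.5 for Atp6ap2. The differences of -0.86 ± 0.12, -1.498 ± 0.20 and -1.31 ± 0.11 all passed the limma test (adjusted p at most 7.5e-06), and each was seen in 8 of 8 mice (exact sign-flip p = 0.0078). Agtr1a stood at 15.99 FPKM in the liver, with 18.3 in the kidney. Its difference of -0.22 ± 0.096 had an adjusted p of 0.045 in limma, was seen in 6 of 8 mice and gave an exact sign-flip p of 0.14. With the mouse as a block, as fits liver and kidney of the same animals, the adjusted p of Agtr1a became 0.11 and that of the other 6 genes stayed under the threshold.

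Differences between organs on this scale depend on how the libraries are scaled. Of 14968 genes tested, 75.1% were called between the organs, 1969 higher in the liver and 9266 higher in the kidney, and the median gene differed by -0.75. After scaling by the median ratio of genes this median was -0.033, and the calls were 4643 and 5182. On that scale Agt, Ren1, Ace, Mme and Atp6ap2 kept their direction and their call (4.52, -6.30, -5.74, -0.73 and -0.54), Enpep differed by -0.086 (adjusted p = 0.69), and Agtr1a was higher in the liver, by 0.55 (limma adjusted p = 0.00075). The direction of Agtr1a between the organs thus depended on the scaling.

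**Figure D1:**
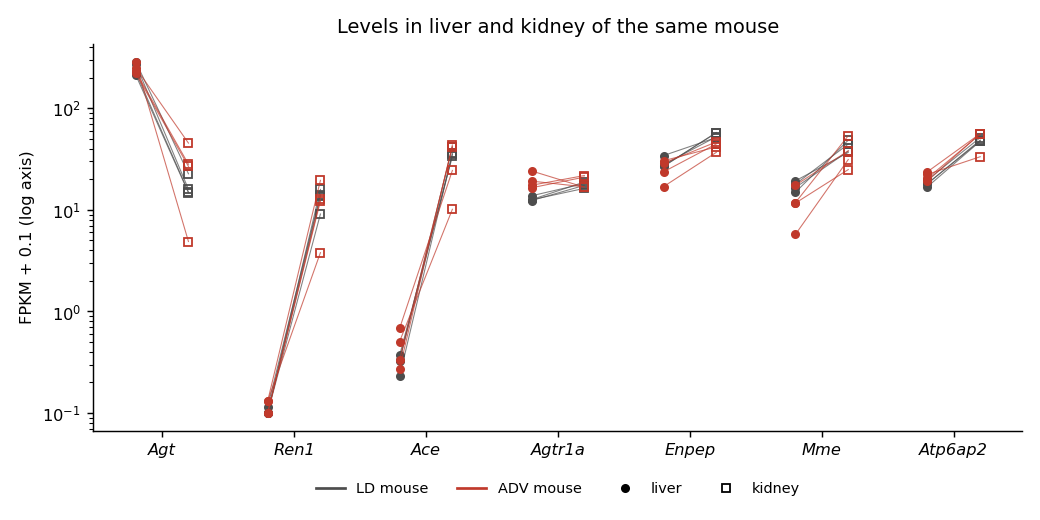
Level of each gene in the liver (filled circles) and the kidney (open squares) as FPKM + 0.1 on a log axis, with a line for each of the 8 mice, grey for LD and red for ADV. Lines for Agt fall from liver to kidney in 8 of 8 mice, those for Ren1 and Ace rise in 8 of 8, and those for Agtr1a are nearly flat.

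Ordered by mean FPKM in the liver, Agt (249) stood far above Enpep (26.9), Atp6ap2 (19.7), Agtr1a (15.99), Mme (14.3), Ace (0.282) and Ren1. The order of Agtr1a and Mme divided by condition, with Mme above Agtr1a in 4 of 4 LD livers and below it in 3 of 4 ADV livers. In the kidney the 7 genes lay closer together, from Atp6ap2 (49.5) and Enpep (48.5) through Mme (39.4), Ace (33.2), Agt (21.6) and Agtr1a (18.3) to Ren1 (12.6). Here too the order of neighbours was not the same in both conditions. Enpep was above Atp6ap2 in 4 of 4 LD kidneys and below it in 3 of 4 ADV kidneys, and Agt was above Agtr1a in 1 of 4 LD and 3 of 4 ADV kidneys. In L86, Enpep and Atp6ap2 were nearly level, at 51.5 and 51.4 FPKM. Centring by GC content, described below, put Agt below Agtr1a in A94 (4.16 and 4.37 on the log2 scale). Agt stayed above Agtr1a in A75 (4.84 and 4.02) and A91 (4.47 and 4.44). The order of Enpep and Atp6ap2 turned on centring in L86 (5.63 and 5.66) and A115 (5.36 and 5.33).

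The livers of the 2 conditions were compared first, to ask whether the long ADV schedule came with another level of precursor, receptor or peptidase in the organ that supplies angiotensinogen. Precursor RNA overlapped between the conditions, the receptor Agtr1a was higher in each of the 4 ADV livers, and the peptidase Mme was lower in 3 of 4. None of the 6 members tested passed the adjusted threshold of 0.05 in limma, at which 0.00779% of the 12835 genes tested, 1 gene, was called. Of the 6, 2 had an unadjusted p under 0.05 with a higher and 1 with a lower ADV mean, as had 8.65% and 3.13% of all genes (1110 and 402 genes, or 795 and 936 with scaling by the median ratio).

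Agt was 228, 214, 288 and 273 FPKM in the livers of L63, L65, L86 and L104, and 251, 231, 221 and 283 in those of A75, A91, A94 and A115. The ADV values lay inside the range of the LD values. The difference of -0.02 ± 0.13 (95% interval -0.31 to 0.27, limma adjusted p = 0.96; exact permutation p = 0.89) leaves room for a change of either sign within that interval.

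Agtr1a, the receptor gene, was 13.7, 12.5, 12.5 and 12.3 FPKM in the LD livers and 19.1, 16.4, 17.4 and 24.1 in the ADV livers. The lowest ADV liver was above the highest LD liver. The means were 12.7 ± 0.64 and 19.2 ± 3.4 FPKM (SD, n = 4 each), a ratio of 1.51, and the difference was 0.58 ± 0.13 (95% interval 0.30 to 0.86). Its unadjusted limma p was 0.0012 and its adjusted p 0.27, and over the alternatives the adjusted p ran from 0.10 to 0.64. The two-sided exact permutation p was 0.029, the smallest that the 70 assignments of 4 mice against 4 give. Such separation was not rare, as in 6.94% of the genes tested every ADV liver was above every LD liver, and 8.65% had an unadjusted p under 0.05 with a higher ADV mean. The groups also stayed apart without A115 and with totals that left out the mitochondrial genes. All 16 alternatives kept the difference positive, between 0.36 and 0.65.

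Markers of other cells were read in the same livers. A set of 5 markers of hepatic stellate cells, which also carry this receptor, summed to 142, 151, 142 and 132 FPKM in the LD livers and to 215, 178, 274 and 201 in the ADV livers, and 7 markers of smooth muscle and pericytes to between 12.3 and 14.1 in LD and between 16.2 and 41.8 in ADV. Neither sum overlapped between the conditions, but single genes mostly did. In the stellate list only Dcn, which made up most of the sum, was without overlap (at most 119 FPKM in LD and at least 147 in ADV), and in the smooth muscle list only Rgs5 was, against 6.94% of all genes. The sum of 9 immune markers was 105 to 158 FPKM in LD and 142 to 758 in ADV, the highest being A94. Of the immune markers Adgre1 (at most 5.81 in LD and at least 6.30 in ADV) and Ptprc (2.17 and 2.18) were without overlap. All markers of the stellate, smooth muscle and immune lists were detected, and limma called none of their genes, 1, 4 and 2 of which had an unadjusted p under 0.05 with a higher ADV mean, beside 8.65% of all genes. Hepatocyte markers overlapped between the conditions (55756 to 68418 and 56015 to 67281 FPKM). The part of these cells in the level of Agtr1a was not tested.

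Mme, which encodes neprilysin, was 14.8, 17.8, 19.2 and 16.5 FPKM in the LD livers and 11.6, 17.4, 5.64 and 11.7 in the ADV livers. Of the ADV livers, 3 were below all LD livers and that of A91 lay within the LD range. The difference of -0.66 ± 0.29 had an unadjusted p of 0.045 and an adjusted p of 0.41 in limma, and an exact permutation p of 0.086. Without A94, the lowest liver, it was -0.35 (limma adjusted p = 0.34). The background of genes with an unadjusted p under 0.05 and a lower ADV mean was 3.13%.

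Atp6ap2 was 17.99, 16.8, 19.6 and 18.1 FPKM in the LD livers and 22.3, 19.2, 23.6 and 20.4 in the ADV livers. In all, 3 of the 4 ADV values were above all LD values, and with totals that left out the mitochondrial genes all 4 were, the nearest pair being 21.01 in A91 and 20.96 in L86, a separation found there in 7.29% of the genes tested. The difference of 0.23 ± 0.098 had an unadjusted p of 0.040 and an adjusted p of 0.41 in limma, with an exact permutation p of 0.057. With scaling by the median ratio it was 0.13, the median of all genes being 0.096 before that scaling and -0.0020 after it.

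Enpep was 26.8, 26.7, 34.2 and 27.8 FPKM in the LD livers and 30.4, 28.7, 16.8 and 23.6 in the ADV livers. The groups overlapped, and the difference of -0.24 ± 0.18 had an adjusted p of 0.56 in limma (exact permutation p = 0.31). It was -0.069 without A94 and -0.16 without L86. Both Enpep and Mme were lowest in the liver of A94, the liver that stood farthest from the others (mean correlation 0.962 against 0.981 to 0.985). Ace was read at 0.130 to 0.269 FPKM in the LD livers and 0.173 to 0.581 in the ADV livers, on 15.5 to 64.5 fragments, and its difference of 0.44 ± 0.32, which was 0.20 without A94, had an adjusted p of 0.56 in limma.

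**Figure D2:**
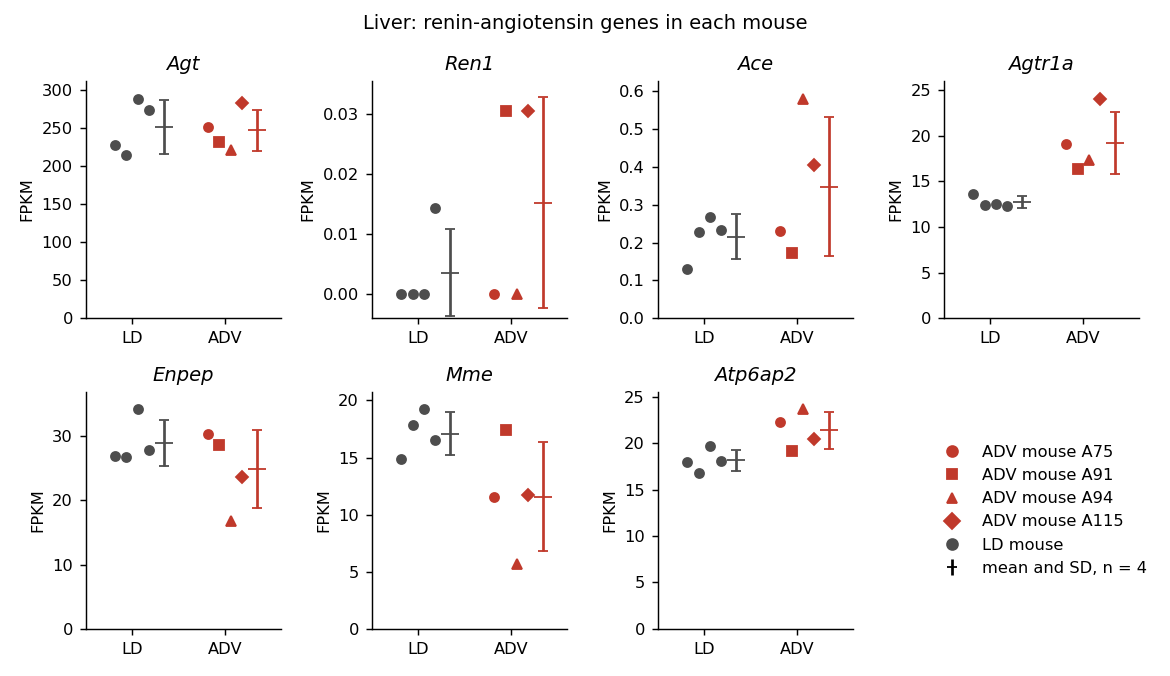
FPKM of the 7 genes in each liver, LD in grey and ADV in red with a symbol for each ADV mouse, and the mean with SD of each group (n = 4); each panel has its own axis. Agtr1a separates the groups (12.3 to 13.7 against 16.4 to 24.1), Mme is below all LD livers in 3 of 4 ADV livers, and Agt overlaps.

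The kidneys were compared in the same way, the kidney being the organ that makes renin and that responds to angiotensin II. In all, 3 of the 4 ADV kidneys had more Agt RNA than any LD kidney and all 4 had less Enpep RNA, while A115 differed from its group in Agt, Ren1 and Ace. None of the 7 members was called, as none of the 14452 genes tested was (0% at an adjusted p under 0.05 in limma, with 448 genes at an unadjusted p under 0.05; limma-voom on the recovered fragments also called 0, with 404).

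Agt was 14.9, 14.7, 22.6 and 15.9 FPKM in the kidneys of L63, L65, L86 and L104, and 45.4, 28.1, 26.7 and 4.78 in those of A75, A91, A94 and A115. A75, A91 and A94 were above all LD kidneys, and A115 was below them all. With the 8 mice the difference was 0.27 ± 0.63 (95% interval -1.18 to 1.71, limma adjusted p = 1.0; exact permutation p = 0.71). Without A115 it was 0.95 ± 0.22 and passed the test (limma adjusted p = 0.024). In that fit 16.1% of 14475 genes were called higher in ADV and 2.68% lower, so that a call of Agt was 1 among many.

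Ren1 was 9.0, 15.8, 13.6 and 14.1 FPKM in the LD kidneys and 12.1, 19.4, 12.7 and 3.69 in the ADV kidneys. A91 was the highest and A115 the lowest of the 8. The difference was -0.32 ± 0.48 with all mice and 0.16 ± 0.23 without A115, with limma adjusted p of 1.0 and 0.62, and the sign without A115 turned with the processing, as it was -0.031 with scaling by the median ratio. Ace was 35.9, 35.0, 33.5 and 41.4 FPKM in the LD kidneys and 41.7, 43.4, 24.4 and 10.04 in the ADV kidneys. A75 and A91 were above all LD kidneys, and A94 and A115 were below them. The difference of -0.49 ± 0.44 with all mice became -0.040 ± 0.20 without A115 (limma adjusted p = 1.0 and 0.90), or -0.24 with scaling by the median ratio (limma adjusted p = 0.45).

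Enpep was 57.2, 57.7, 51.5 and 52.3 FPKM in the LD kidneys and 41.6, 46.5, 36.8 and 44.5 in the ADV kidneys. Here A115 lay within its group, and every ADV kidney was below every LD kidney. The means were 54.7 ± 3.2 and 42.3 ± 4.2 FPKM (SD, n = 4 each), and the difference was -0.37 ± 0.13 (95% interval -0.67 to -0.074). Its unadjusted limma p was 0.021, its adjusted p 1.0, and its exact permutation p 0.029, again the smallest possible. Separation in this direction was found in 1.83% of the genes tested and in the other direction in 0.962%. An unadjusted p under 0.05 was found in 1.35% of genes with a lower and 1.75% with a higher ADV mean. Without A115 the difference was -0.40 ± 0.10 and passed the test (limma adjusted p = 0.032). With totals that left out the mitochondrial genes, A115 (64.3 FPKM) came to lie within the LD range (60.3 to 69.1), while A75, A91 and A94 stayed below it (46.1, 52.8 and 40.2). The share of these genes was 33.8% in A115, 15.7% to 18.02% in the LD kidneys and 10.7%, 13.1% and 9.43% in A75, A91 and A94.

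The other 3 genes overlapped between the groups. Mme was 36.7 to 48.5 FPKM in the LD kidneys and 24.8, 38.1, 31.2 and 53.7 in the ADV kidneys, where A115 was the highest of the 8. Its difference was -0.23 ± 0.24 with all mice and -0.43 ± 0.16 without A115 (limma adjusted p = 1.0 and 0.094), and -0.056 without A75. Agtr1a was 16.2 to 18.7 FPKM in LD and 16.6 to 21.7 in ADV, a difference of 0.10 ± 0.15 with a 95% interval of -0.23 to 0.44. Atp6ap2 was 47.4 to 51.4 FPKM in LD and 33.3, 56.3, 56.2 and 55.4 in ADV, with A75 below and the other 3 above all LD kidneys, and its difference was 0.013 ± 0.19.

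**Figure D3:**
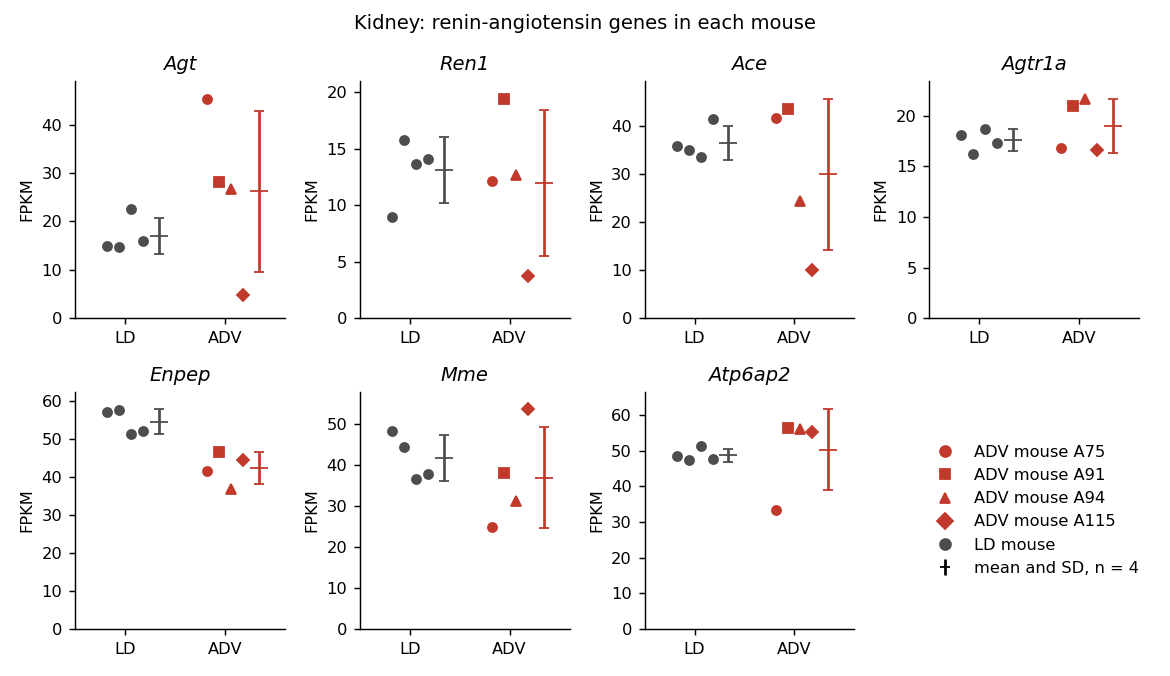
FPKM of the 7 genes in each kidney, LD in grey and ADV in red with a symbol for each ADV mouse, and the mean with SD of each group (n = 4); each panel has its own axis. The kidney of A115 (diamonds) is the lowest of all for Agt, Ren1 and Ace (4.78, 3.69 and 10.04 FPKM) and the highest for Mme (53.7 FPKM).

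The members that were low in the kidney of A115 were those with the highest GC content. GC content was 56.3% for Agt, 55.6% for Ace and 54.7% for Ren1, and 46.5% for Agtr1a, 45.5% for Enpep, 41.7% for Mme and 40.5% for Atp6ap2, for the GENCODE M21 transcript of each gene nearest to its exon length in the tables (for Mme, 3782 against 5699 bases). The 3 GC-rich genes were lower in A115 than the LD mean by nearly the same amount, with log2 differences of -1.78 for Agt, -1.77 for Ren1 and -1.84 for Ace. The 4 other genes differed by -0.077 for Agtr1a, -0.29 for Enpep, 0.37 for Mme and 0.19 for Atp6ap2. This was not particular to the members. Over the 3388 tested genes of highest GC content the median difference of A115 from the LD mean was -1.75, and over the 3388 of lowest it was 0.34. In A75, A91 and A94 the tilt was the reverse, with medians of 0.71, 0.42 and 0.66 for the GC-rich set and -0.20, -0.15 and -0.067 for the GC-poor set. Across genes, the correlation of this difference with GC content was -0.69 in A115, 0.59 in A75, 0.57 in A91 and 0.37 in A94, and between -0.32 and 0.24 in the LD kidneys, each set against the other 3. In the livers it lay between -0.25 and 0.15. Genes within a library share its preparation and are not independent, so these correlations are a description.

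**Figure D4:**
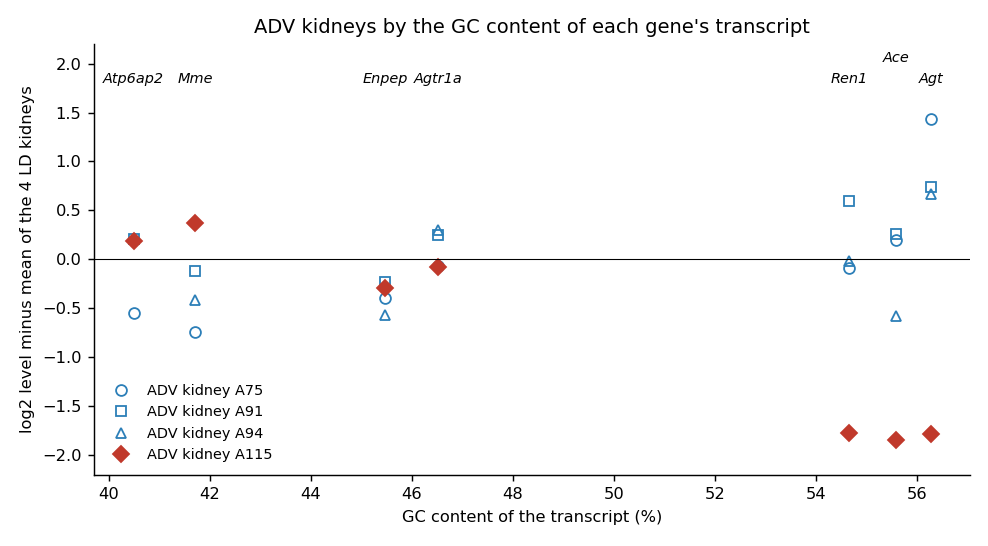
Difference of each ADV kidney from the mean of the 4 LD kidneys on the log2(FPKM + 0.1) scale, plotted against the GC content of the transcript in percent, with 1 symbol for each ADV mouse. At 54.7% to 56.3% GC, A115 (filled diamonds) lies between -1.84 and -1.77 while the other ADV kidneys lie between -0.57 and 1.43; at 40.5% to 46.5% GC A115 lies between -0.29 and 0.37.

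The comparison was therefore repeated with the values of each library centred on the median of genes of like GC content, in 20 bins. This step was added after the data had been seen, and it removes any change that GC-rich genes share, whatever its source. With all mice the SE of Agt in the kidney fell from 0.63 to 0.21 and the difference was 0.28, that of Enpep was -0.35 ± 0.12, and the limma adjusted p values were 0.75 and 0.67, with 0% of 13551 genes called and 1003 at an unadjusted p under 0.05. Without A115, Agt differed by 0.44 ± 0.17 (unadjusted p = 0.034, limma adjusted p = 0.23) and Enpep by -0.34 ± 0.11 (unadjusted p = 0.014, limma adjusted p = 0.18). The calls of both genes were thus lost, and limma called 0% of the 13571 genes in this fit, with 2537 at an unadjusted p under 0.05. Scaling by the median ratio, which does not use GC content, kept both calls without A115 (0.75 for Agt and -0.59 for Enpep, limma adjusted p = 0.037 and 0.030), with 16% of genes called, 1166 higher and 1143 lower where there had been 2336 and 388. The direction of the 2 genes was the same in each of these fits. The separation of Enpep was lost, however, since 3 of the 4 ADV kidneys were below all LD kidneys after the centring and A91 was level with L86, and Agt was above all LD kidneys in 2 ADV kidneys instead of 3. Ace and Ren1, which are GC-rich too, were lower in ADV after the centring both with all mice (-0.47 and -0.29, limma adjusted p = 0.67 and 0.78) and without A115 (-0.49 and -0.21, limma adjusted p = 0.28 and 0.65). For each of them 3 of the 4 ADV kidneys then lay below all LD kidneys, and neither passed the test. In the liver, the same centring left Agtr1a at 0.47 ± 0.13 (limma adjusted p = 0.27), with the 4 ADV livers still above all LD livers, as in 4.66% of the 12133 genes centred. Atp6ap2 fell to 0.091 (limma adjusted p = 0.64), with 1 ADV liver above all LD livers instead of 3. Mme and Enpep moved further down, to -0.80 and -0.35 (limma adjusted p = 0.33 and 0.48).

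**Figure D5:**
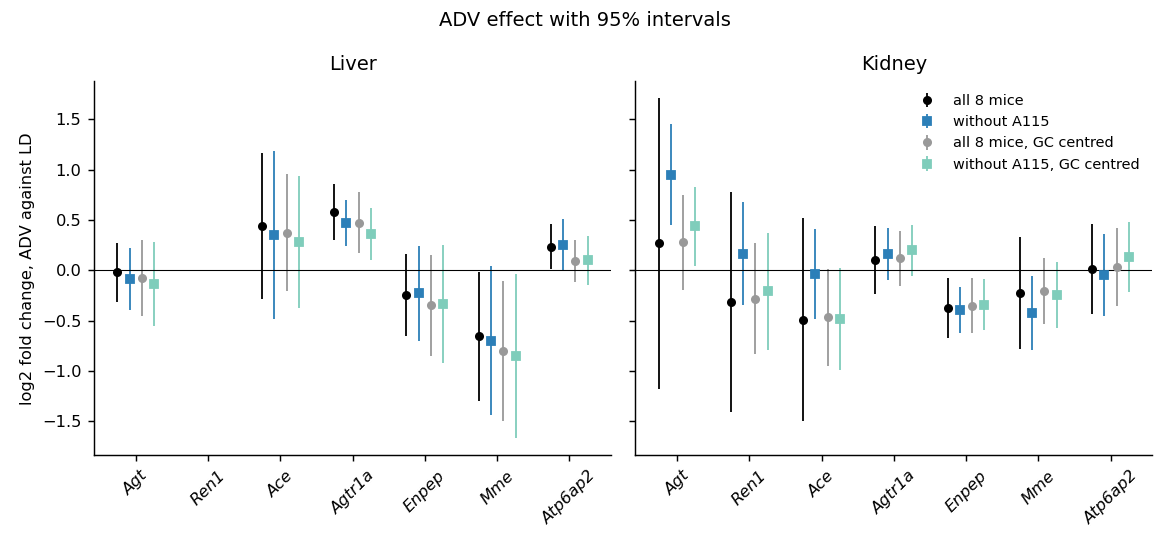
Log2 difference of ADV from LD with its 95% interval for each gene, in the liver (left) and the kidney (right), with all 8 mice and without A115, as deposited and after centring on genes of like GC content; Ren1 was not tested in the liver. In the kidney the interval of Agt is widest with all mice (-1.18 to 1.71) and narrows on centring, and the intervals of Enpep in the kidney and Agtr1a in the liver lie on 1 side of 0 in each of the 4 fits.

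Whether ADV moved a member differently in the 2 organs was tested in the fit over the 16 libraries. Agtr1a had the smallest p, its difference being larger in the liver by 0.47 ± 0.19 (limma unadjusted p = 0.026, adjusted p = 1.0). No gene was called by limma (0% of 14968, with 556 at an unadjusted p under 0.05; limma-voom called 0, with 536). Without A115 the change of Agt was lower in the liver than in the kidney by -1.04 ± 0.27 (limma adjusted p = 0.060). A higher receptor RNA in the liver alone, or a higher precursor RNA in the kidney alone, was therefore not shown.

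Further genes of the system were read from 2 lists of roles. Of 17 other peptidases that make or break angiotensins and kinins, 11 were tested in liver and 13 in kidney, and of 9 other receptors and partners in the tables, 3 and 4 were. With all mice limma called 0 of them in either organ, and 3 in the liver (2 higher, 1 lower) and 0 in the kidney had an unadjusted p under 0.05, beside 8.65% higher and 3.13% lower of all genes in the liver and 1.75% and 1.35% in the kidney. The most abundant peptidase genes were Cpb2, a plasma carboxypeptidase that the liver secretes (mean 305 FPKM), and Ctsd, the lysosomal cathepsin D (189 FPKM), in the liver, and Klk1, tissue kallikrein (1297 FPKM), and Ctsd (315 FPKM) in the kidney. Klk1 has near-identical neighbours in its gene family, so that its level is uncertain. Cpb2 was 254 to 279 FPKM in the LD livers and 286 to 432 in the ADV livers, every ADV value being above every LD value, as in 6.94% of the genes tested (0.37 ± 0.13, unadjusted p = 0.018, limma adjusted p = 0.37). Prep, prolyl oligopeptidase, which releases the heptapeptide angiotensin from angiotensin I, went the other way, with 12.1 to 12.9 FPKM in LD and 8.64 to 10.9 in ADV without overlap (-0.36 ± 0.097, unadjusted p = 0.0045, limma adjusted p = 0.30), a separation found in 1.89% of the genes tested. The median difference of the peptidase list was 0.024 in the liver, where the median of all genes was 0.096, and -0.037 in the kidney, where it was -0.024.

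Among receptors and partners, Atp6ap1, a proton pump subunit like Atp6ap2, was the most abundant in both organs (34.3 FPKM in liver, 78.5 in kidney). Arap1, which takes part in receptor traffic, followed in the liver (6.21 FPKM) and Agtrap, which binds the type 1 receptor and promotes its internalisation, in the kidney (16.98 FPKM). Arap1 was 4.53 to 5.79 FPKM in the LD livers and 6.64, 5.66, 10.4 and 6.90 in the ADV livers, so that A91 overlapped with LD (0.52 ± 0.18, unadjusted p = 0.018, limma adjusted p = 0.37). The other angiotensin receptor genes Agtr1b and Agtr2 and the Mrgprd gene were listed at 0 in all livers. In the kidneys Agtr1b reached 0.136, Agtr2 0.0406 and Mas1 0.285 FPKM at most. Agtr1a was thus the angiotensin receptor gene read at more than 1 FPKM in either organ.

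Further lists held genes upstream and downstream. Of 14 genes of the aldosterone response, 9 were tested in liver and 14 in kidney; of 14 genes of renin cells and the macula densa, 8 and 14; and of 12 transcription factors that act on Agt, 12 in both. Again limma called 0 of them with all mice, and 5 of 29 in the liver (3 higher, 2 lower) and 2 of 40 in the kidney (1 each way) had an unadjusted p under 0.05, beside the same shares of all genes. In the liver, Hnf4a, a nuclear receptor that drives hepatocyte genes, was 178, 186, 232 and 231 FPKM in LD and 149, 146, 127 and 199 in ADV (-0.42 ± 0.16, unadjusted p = 0.023, limma adjusted p = 0.38), and Cebpd, a factor of the acute phase, was 4.00 to 4.65 in LD and 4.23 to 7.29 in ADV (0.45 ± 0.16, unadjusted p = 0.021, limma adjusted p = 0.37). Sgk1, a kinase induced by aldosterone and glucocorticoids, was 3.71 to 5.59 FPKM in the LD livers and 5.13 to 7.23 in the ADV livers (0.43 ± 0.17, limma unadjusted p = 0.033, adjusted p = 0.39). Rgs5, a pericyte gene that is also in the smooth muscle list above, was 7.68 to 10.1 FPKM in the LD livers and 11.3 to 15.6 in the ADV livers (0.56 ± 0.13, limma unadjusted p = 0.0018, adjusted p = 0.30), without overlap.

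In the kidney, Wnk1, a kinase that controls salt transport in the distal nephron, was 44.4 to 55.7 FPKM in LD and 38.9, 37.8, 28.4 and 30.1 in ADV, with every ADV kidney below every LD kidney, as in 1.83% of the genes tested (-0.51 ± 0.16, unadjusted p = 0.012, limma adjusted p = 1.0). Cebpd was 1.64, 2.28, 6.80 and 2.01 FPKM in LD and 14.4, 3.78, 8.34 and 4.39 in ADV (1.28 ± 0.55, unadjusted p = 0.048, limma adjusted p = 1.0). Without A115, 4 peptidases (Thop1, Ctsa, Rnpep and Dpp3), the partners Agtrap and Arap1, Wnk4, Gja4 and Adcy6 of the renin cell list, and the factors Cebpa and Thra were called higher and Wnk1 was called lower. These calls were made in the fit in which 16.1% of all genes were called higher, and no gene was called after centring by GC content. Agtrap may serve as an example, at 15.3 to 15.9 FPKM in the LD kidneys, 22.8, 21.5 and 22.8 in A75, A91 and A94, and 6.21 in A115.

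Some markers of the nephron were low in A115 too. Slc34a1, the phosphate carrier of the proximal tubule, was 801 to 992 FPKM in the LD kidneys, 1292 to 1553 in A75, A91 and A94, and 154 in A115, and Nphs1, a slit diaphragm gene of podocytes, was 4.25 to 4.46, 4.75 to 5.11 and 0.960. The sums of the proximal tubule list overlapped (29660 to 43199 FPKM in LD, 20247 to 47946 in ADV). Kap made up most of each sum, and A115 had the highest. Over the whole list, 10 of 10 genes had a lower ADV mean on the log2 scale and 1 an unadjusted p under 0.05. This direction rested in part on A115, without which 3 of the 10 were higher in ADV (Slc34a1 by 0.63, Slc5a2 by 0.87 and Slc22a6 by 0.091), the first 2 of them being called by limma. The sum of 6 injury markers, of which Spp1 made up most, was 8870 FPKM in A115, 7741 in A75, 3355 in L86 and 719 to 1014 in the other 5 kidneys. The sum of 9 immune markers was 1844 in A94 against 171 to 540 in the others. Their part in the levels of Agt, Ren1, Ace and Enpep was not tested.

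For each member, the 3 genes whose levels followed it most closely over the 8 libraries of the organ with its higher mean were named by Pearson's r on the log2 scale. They were Myo1e, Mtus1 and Smg8 for Agt in the liver (0.95 to 0.96), and in the kidney Cyp2u1, AI606181 and Plk5 for Ren1 (0.97), Gm10787, Zbtb40 and Slco3a1 for Ace (0.99), Irx2, 2210016F16Rik and Lemd3 for Agtr1a (0.96 to 0.98), Bend7, Gfm1 and Acot12 for Enpep (0.96 to 0.99), Saxo2, Ltn1 and Arhgap18 for Mme (0.99 to 0.997), and Nipa2, Cisd2 and 9030025P20Rik for Atp6ap2 (0.97). These are descriptions over few libraries, which share their depth and base composition. Without A115, r for Ren1 fell to between 0.85 and 0.87 and for Ace to between 0.90 and 0.95, and for the genes named with the other members it stayed at 0.93 or above.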

How the data were processed

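Poly(A) RNA of liver and kidney was sequenced as stranded paired ends. The authors trimmed adaptors, mapped reads to mm10 with STAR 2.5.4b, removed reads of low mapping quality and used HOMER to quantify exons of the UCSC canonical gene models. The deposited values are FPKM, divided by the total of each library and not normalised further between libraries; values came out in steps of 0.5 fragment (100% within 0.02), from which fragments were recovered. Libraries were sequenced by different providers, and which library went to which is not given in the sources used here, so that provider cannot be told apart from condition, organ or the GC tilt between kidneys. Genes with a mean above 0.5 on the FPKM scale before its division by exon length were tested on log2(FPKM + 0.1) with limma 3.58.1 (lmFit, eBayes with trend) in R 4.3.3, with Benjamini-Hochberg adjustment over all genes tested and a threshold of 0.05. Fold changes on this scale understate those of low genes. Single genes were also tested over the mice by exact permutation (70 assignments) or sign flips, two-sided. Replicates were different mice, and liver and kidney carried the same mouse names, so that organs were paired by animal; deviations from the group means correlated between the organs of a mouse by -0.024 to 0.55. The code was tested on simulated data.

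Alternatives were a pseudocount of 1, no filter, scaling by the median ratio, totals without mitochondrial genes, limma-voom on recovered fragments, each mouse left out, A115 left out with that scaling, and the mouse as a block between organs. Centring on genes of like GC content, from GENCODE M21 transcripts matched by symbol (94.5% of tested liver and 93.8% of tested kidney genes), was added after the data had been seen. Named genes were all members, the list genes with an unadjusted p under 0.05 (at most 6 per list) or the highest FPKM (2 per list of roles), and the 3 genes most like each member; Slc34a1, Nphs1 and the list genes called without A115 were named after their values were seen. Members, lists and rules were chosen with earlier results of these data known. Some genes of the lists are counted but not reported here by name.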

Additional observations from a re-analysis of the deposited data

Results flagged for a closer look

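Among 28 groups of 4 values, one for each of the 7 genes in each organ and condition, 4 had a mouse whose gap to its nearest neighbour took a share of the range of the group above Dixon's critical value. Chance alone gives about 1 in 20 groups. Agt was highest in the LD kidney of L86, at 22.6 FPKM, and Enpep was highest in the LD liver of the same mouse, at 34.2 FPKM. The other 2 were the ADV kidney of A75, lowest for Atp6ap2 at 33.3 FPKM, and the LD liver of L104, the only LD liver with any Ren1, at 0.0144 FPKM, which is 0.5 of a fragment. With the other 3 livers at 0 this last share is the whole range by construction, so that nothing can be read from it and 3 of the 4 remain to be set against chance.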

How the results depend on the processing

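Of 418 differences of members recomputed under the alternatives, 388 kept their direction and their side of the threshold, 18 changed sign, 8 others lost a call and 4 gained one (of the 18, Enpep between organs without A115 with the median ratio also lost its call); the cause was not tested. In the liver, genes called went from 1 to 9 without a filter and to 0 without A115 after GC centring, and ranged from 0 (without L65, L104 or A75) to 9 (without A91) on leaving out a mouse; no member was called, and Agt ran from -0.093 to 0.051. In the kidney, 1 gene was called without a filter, 0 to 2724 on leaving out a mouse and 2309 without A115 with the median ratio; members called ran from 0 to 2 and were 2 in the latter. There Agt ran from -0.12 (without A75) to 0.95 (without A115), Ren1 from -0.62 to 0.16 (without A115) and Atp6ap2 from -0.052 to 0.20; Atp6ap2 was -0.0024 with the median ratio and, without A115 as well, -0.24, where Agtr1a was -0.033. Between organs, Agtr1a was 0.55 with the median ratio and 0.53 without A115 as well, where Enpep was 0.0037. With the mouse as a replicate block, 11417 genes and 6 members were called between organs (11235 and 7 without it), Agtr1a losing its call (limma adjusted p = 0.11), also lost without any 1 of 6 mice, and no gene in the difference of effects; it changed no other call of a member. For that difference, genes called were 4 without a filter, 1 with the median ratio, 418 without A115 with it and 0 to 411 on leaving out a mouse (411 without A115); Agt ran from -1.04 to 0.093 (without A75) and Ren1 from -0.085 (without A115) to 0.703. Depth limited Ren1 and Ace in the liver.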
